A study of Mus musculus with 20 samples.

Results

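The Hox genes are the transcription factor genes that mark position along the body axis. They were followed here in lumbar dorsal root ganglia of the mouse, which hold the cell bodies of the sensory neurons of trunk and hindlimb. The members were a list of 38 Hox genes, matched by Ensembl ID to 38 of the 55416 genes in the count files. They comprise 10 HoxA, 10 HoxB, 9 HoxC and 9 HoxD genes. Counts came from 19 libraries of 10 adult C57Bl6 mice, taken from the L3 to L5 ganglia 1 month after tamoxifen. In these bulk tissue samples, 5 animals are, by title, inducible conditional knockouts of Prdm12 (icKO, AdvCreERT2; P12 Fl/Fl TAM) and 5 are controls (P12 Fl/Fl TAM), so the floxed Prdm12 alleles and tamoxifen are common to both. The characteristics name a Cre driven from Adv, while the series text names Rosa26CreERT2. Each animal gave a formalin library and a noninjected library, and formalin is an irritant used to cause inflammatory pain. The library labelled icKO 1 formalin held 2829 counts, 0 of them on a Hox gene, and was left out.

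The genotype word in the deposited names differs from the title for 4 animals: control 1 and control 4 carry the word icKO there, and icKO 2 and icKO 3 the word control. The Hox genes were grouped by the deposited name, with the titles and with the 6 animals whose records agree set beside it. By deposited name, Prdm12, the targeted gene, averaged 23.7 ± 6.06 CPM (counts per 1000000, TMM scaled) in icKO and 90.8 ± 11.8 CPM in control animals (SD, n = 5 each). The highest icKO animal was at 32.7 CPM and the lowest control animal at 73.2 CPM. By title it averaged 46.4 ± 37.2 CPM in icKO and 68.2 ± 36.1 CPM in controls (SD, n = 5 each), so Prdm12 goes against the title in those 4 animals. The sources used here do not say which of the L3, L4 and L5 ganglia, or which side, went into each library.

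Mouse Hox genes lie in 4 clusters, HoxA to HoxD, and genes at the same place in different clusters, the paralogs, share a number. Low paralog numbers lie at the 3′ end of a cluster and are used in the head and neck, and high numbers lie at the 5′ end and are used towards the tail. During development the highest paralog number in use shifts along the spinal cord, with paralogs 9 to 11 marking the lower thoracic, lumbar and sacral levels. Hox proteins bind DNA together with the Pbx and Meis cofactors. Polycomb complexes keep unused Hox genes silent, and retinoic acid activates the 3′ genes.

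Sequences are shown first for the genes on which the results turn. Hoxd1 and Hoxb8 were higher in icKO in the 6 animals whose records agree, and Hoxd10 and Hoxd11 varied together over the libraries. Each window holds the 300 bases around a transcript start, most of them before it, from RefSeq on GRCm38.p6, read on the plus strand, with CpG sites in capitals for the HoxD genes. The Hoxd1 window, chr2:74762730-74763029, held 29 CpG sites. The Hoxd10 window, chr2:74691641-74691940, held 22, and a Hoxd11 window, chr2:74682073-74682372, held 25. The other Hoxd11 window, chr2:74679308-74679607, held 4 and is not shown. The median was 14.5 CpG sites over the 24 windows of the members found in the table, which belong to 22 genes, and 7 over all 32851 windows.
Hoxd1: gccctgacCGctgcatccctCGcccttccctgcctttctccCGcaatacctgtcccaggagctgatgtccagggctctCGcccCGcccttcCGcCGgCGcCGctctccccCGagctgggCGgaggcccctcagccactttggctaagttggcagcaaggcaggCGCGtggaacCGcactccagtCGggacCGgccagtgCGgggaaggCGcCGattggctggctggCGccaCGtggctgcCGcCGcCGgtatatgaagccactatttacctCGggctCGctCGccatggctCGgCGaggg
Hoxd10: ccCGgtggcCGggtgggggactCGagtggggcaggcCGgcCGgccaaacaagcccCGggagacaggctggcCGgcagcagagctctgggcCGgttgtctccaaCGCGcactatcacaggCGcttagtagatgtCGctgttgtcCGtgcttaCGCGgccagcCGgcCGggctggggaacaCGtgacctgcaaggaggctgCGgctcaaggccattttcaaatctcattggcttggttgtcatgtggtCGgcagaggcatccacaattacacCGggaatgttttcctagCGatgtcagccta
Hoxd11: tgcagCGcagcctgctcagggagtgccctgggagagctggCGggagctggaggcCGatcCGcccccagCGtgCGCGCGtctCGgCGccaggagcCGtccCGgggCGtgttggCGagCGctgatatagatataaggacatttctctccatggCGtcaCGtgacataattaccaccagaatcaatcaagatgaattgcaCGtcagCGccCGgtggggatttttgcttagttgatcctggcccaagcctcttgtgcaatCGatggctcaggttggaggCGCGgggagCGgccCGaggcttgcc

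The Hoxb8 window, chr11:96281655-96281954, held 13 CpG sites. It held 3 copies of TTTATNG, letters close to the site that posterior Hox proteins prefer, searched on both strands and shown here in capitals. That motif was in 8.33% of the members' windows and in 10.9% of all windows.
Hoxb8: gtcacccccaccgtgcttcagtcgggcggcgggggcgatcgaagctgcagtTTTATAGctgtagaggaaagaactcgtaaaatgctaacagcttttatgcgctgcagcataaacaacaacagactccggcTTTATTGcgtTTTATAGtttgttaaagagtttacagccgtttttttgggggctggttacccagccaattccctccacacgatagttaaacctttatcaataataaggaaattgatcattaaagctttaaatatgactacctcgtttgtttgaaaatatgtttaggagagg

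Hoxb8 mRNA is also the classic target of miR-196a, a miRNA encoded in the HoxB and HoxC clusters that cuts it through near-perfect pairing. The mature miRNA is given from RefSeq with its seed, bases 2 to 8, in capitals. The stretch of the Hoxb8 transcript (GENCODE, GRCm38) that pairs with it is given with its unlike base in capitals, and lies on chromosome 11. It matched the reverse complement of the miRNA at 21 of 22 bases. Hoxb8 was the only gene of 55341 with at most 2 unlike bases. Mature miRNAs were not measured in these polyA libraries.
mmu-miR-196a-5p: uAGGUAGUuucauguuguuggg
Hoxb8 site: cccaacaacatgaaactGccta

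The ganglia held the markers of their tissue. All 10 sensory neuron markers, such as Avil and Isl1, were tested, and their summed level ran from 5839 to 9367 CPM over icKO libraries and from 6494 to 8487 CPM over control libraries. Of 8 spinal cord markers 3 passed the filter on low counts, and Mnx1, Chat, Slc6a5, Olig1 and Olig2 were at 0 in part of the libraries, with summed levels of 16.96 to 29.64 CPM in icKO and 17.41 to 30.56 CPM in control libraries. The icKO 5 formalin library held 2274 CPM of skeletal muscle markers and control 4 formalin 403.6 CPM, against 114.9 CPM at most in the others. Libraries held 11763893 to 22392635 counts, of which 3568 to 7327 fell on the 38 Hox genes. In bulk samples, fewer cells of a type and less RNA per cell cannot be told apart.

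Adult lumbar ganglia kept a broad Hox code that stopped at paralog 11. The 38 genes together made up 304 ± 21.6 CPM (SD, n = 10 animals), and between 267 and 368 CPM in single libraries. HoxA genes gave 119 ± 9.39 CPM of this, HoxD genes 68.9 ± 11.7 CPM, HoxB genes 65.6 ± 11.5 CPM and HoxC genes 50.8 ± 4.501 CPM. In all, 30 members had a mean of at least 1 CPM, and 25 were over 1 CPM in every library. Another 6 were over 1 CPM in part of the libraries and 7 in none.

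Levels between genes were compared per kilobase of exon. On that scale paralogs 4 to 8 held 50.6% of the Hox signal (45.1% to 55.5% over animals), paralogs 9 and 10 held 37.7% (34.5% to 42.4%), paralogs 1 to 3 held 9.79% (7.76% to 12.1%), and paralogs 11 to 13 held 1.92% (0.573% to 4.495%). These are sums over 15, 7, 7 and 9 genes in that order, so the shares also reflect the number of genes. Per paralog number the sum was highest at 9, with 22.4 ± 2.15 CPM per kb, and at 10, with 20.7 ± 3.81 CPM per kb (SD, n = 10), which overlap. These sums hold 4 genes at paralog 9 and 3 at paralog 10, while paralog 7, with 2 genes, summed to 13.8 CPM per kb. The level per gene was not compared between paralog numbers. The sum dropped to 2.17 ± 1.51 CPM per kb at paralog 11 (3 genes) and to 0.0112 and 0.0137 CPM per kb at paralogs 12 and 13 (2 and 4 genes). Exon lengths came from GRCm38, while the counts were made on GRCm39.

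**Figure D1:**
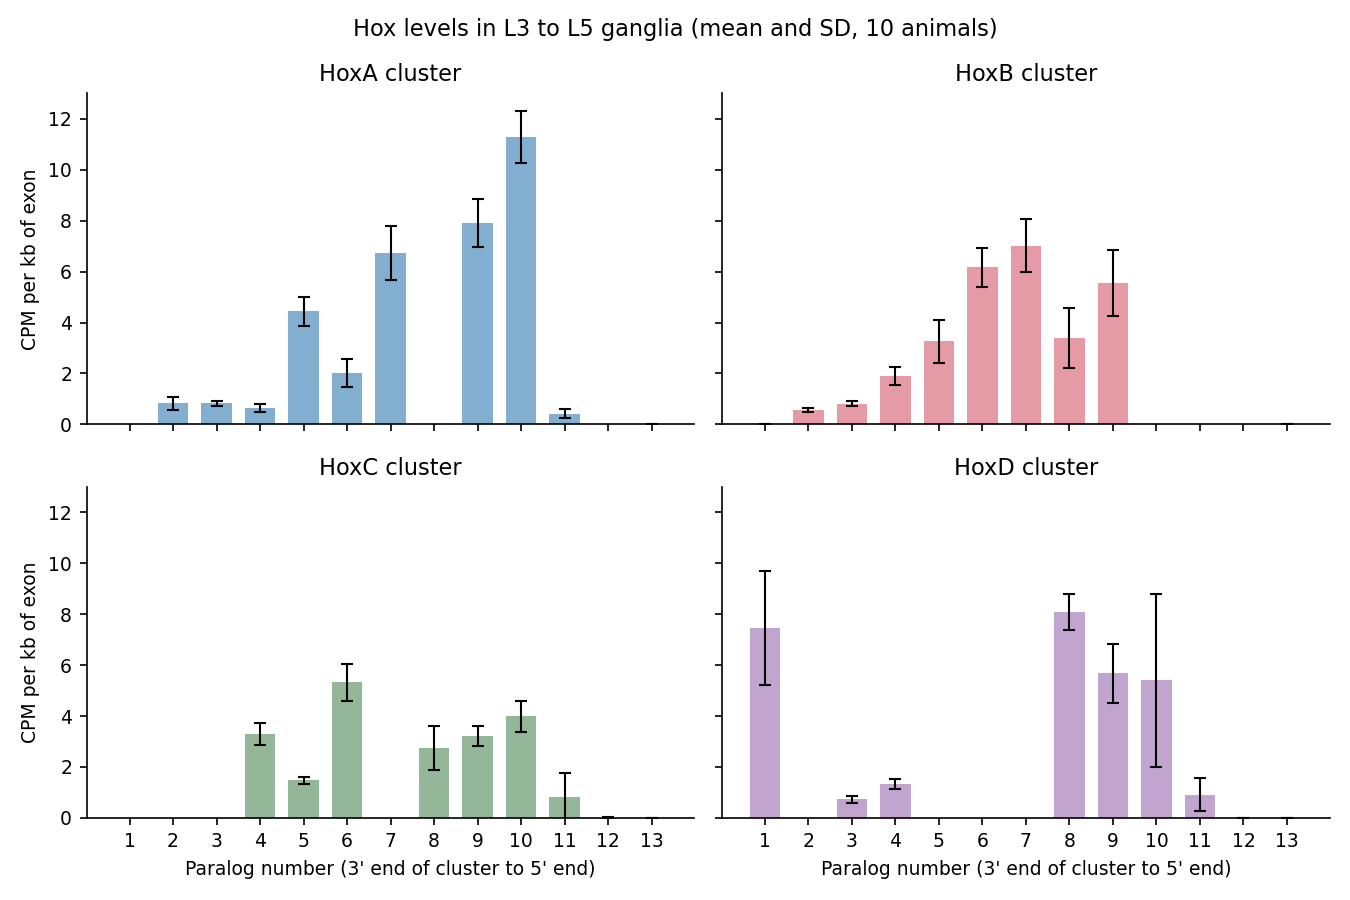
Bars give the mean level of each Hox gene in CPM per kb of exon (y axis) by paralog number (x axis) in the 4 clusters, with the SD over 10 animals as error bars, cut at 0. Hoxa10 is the highest at 11.3 CPM per kb, and paralogs 12 and 13 lie near 0 in every cluster.

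The leading gene of the HoxA cluster was Hoxa10, which sets lumbar identity of vertebrae and of limb motor neurons. It stood at 11.3 ± 1.03 CPM per kb (SD, n = 10), or 37.0 CPM, with 32.9, 36.1 and 43.96 CPM as the lowest, median and highest of the 19 libraries. Hoxa9, its neighbour and a marker of the thoracic to lumbar range, followed with 7.91 ± 0.928 CPM per kb, and Hoxa7 with 6.74 ± 1.06 CPM per kb. In the HoxD cluster Hoxd8 led with 8.08 ± 0.700 CPM per kb (18.9, 21.5 and 27.3 CPM as lowest, median and highest library). Hoxd1, which in mice is known for shaping the central axons of nociceptors, was next with 7.47 ± 2.24 CPM per kb. The HoxB cluster was led by Hoxb7 with 7.01 ± 1.04 CPM per kb (8.27, 10.6 and 15.8 CPM) and Hoxb6 with 6.17 ± 0.771 CPM per kb. In the HoxC cluster Hoxc6 was highest with 5.33 ± 0.718 CPM per kb (8.12, 12.6 and 17.8 CPM), ahead of Hoxc10, a gene of lumbar motor neurons, with 3.99 ± 0.610 CPM per kb. Apart from Hoxa10, these genes overlapped within 1 SD with their neighbours in the order of all members, while Hoxc6 and Hoxc10, which are not neighbours in it, did not.

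Hoxd1 was an exception to the low level of the 3′ genes. The other detected members of paralogs 1 to 3 lay between 0.566 CPM per kb (Hoxb2) and 0.833 CPM per kb (Hoxa3). Hoxd3 and Hoxb3 stood at 0.729 and 0.810 CPM per kb, and Hoxa2, a hindbrain gene, at 0.820 CPM per kb. Of the 50-base stretches of their transcripts, 60.3% (Hoxd3), 51.4% (Hoxb3), 46.8% (Hoxd4) and 33% (Hoxa11) also occur in other annotated transcripts. Hoxb3 shared them with the antisense gene Hoxb3os, Hoxa11 with Hoxa11os, and Hoxd3 and Hoxd4 had the antisense gene Hoxd3os1 and each other among the genes that share theirs. Sharing with another member covered 8.11% of the stretches of Hoxd3 and 11.3% of those of Hoxd4. The kit does not mark the strand, so reads of the antisense pairs cannot be told apart in these stretches. Hoxd3 and Hoxd4 lie on the same strand. Sharing with the opposite strand covered 7.22% of the stretches of Hoxd3 and 10% of those of Hoxd4. Hoxb2 shared 25.9% of its stretches, with Hoxb3os among the genes, and Hoxa3 24.3%, with Hoxaas2 and Hoxaas3 among them. The share was 18.7% for Hoxa7 and 12.7% for Hoxa2. Hoxd1, Hoxb8 and Hoxc11 shared none, Hoxd10 3.17% and Hoxd11 10%. How far sharing changed the levels of these genes was not tested.

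The 6 members over 1 CPM in part of the libraries were Hoxa2, Hoxa4, Hoxa6, Hoxa11, Hoxc11 and Hoxd11. Hoxa2 ran over 0.750, 1.36 and 2.41 CPM as lowest, median and highest library, and Hoxa4, a neck-level gene, over 0.522, 1.06 and 1.67 CPM. Hoxa6 ran over 0.777, 1.85 and 2.68 CPM. Hoxa11, a gene of the limb and the reproductive tract, ran over 0.133, 0.860 and 2.35 CPM, and its highest library was icKO 5 formalin, the library with skeletal muscle markers. Hoxd11 and Hoxc11 ran much wider and are described next.

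The members over 1 CPM in no library were Hoxa13, Hoxb1, Hoxb13, Hoxc12, Hoxc13, Hoxd12 and Hoxd13. Paralogs 12 and 13 belong to the tail, the digits and the urogenital tract, and Hoxb1 to the hindbrain. Over all 19 libraries these genes received 1 (Hoxd13) to 13 (Hoxb1) counts. A count of 0 in a library allows up to 0.132 to 0.259 CPM (3 counts, counting error only). Of the 3 counts on Hoxa13 all fell in icKO 5 formalin, and so did the only count on Hoxd13.

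Hoxd10, Hoxd11 and Hoxc11 set the libraries apart. Hoxd10, which with Hoxa10 and Hoxc10 patterns lumbar motor neurons, stood at 2.35, 6.75 and 28.2 CPM as lowest, median and highest library, a 12-fold range. Hoxd11 ran over 0.626, 2.86 and 10.5 CPM, and Hoxc11 over 0.0585, 0.638 and 8.83 CPM. Hoxa10 ranged over 1.34-fold and Hoxc10 over 1.82-fold in the same libraries. Reads were few for Hoxc11, 1 to 188 counts a library, and more for Hoxd10, 38 to 601.

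The high libraries were the same for these genes. Hoxd10 passed 10 CPM in 7 libraries. It was at 28.2 CPM in control 4 noninjected, 22.6 CPM in control 3 formalin, 21.1 CPM in control 5 formalin and 19.6 CPM in control 2 formalin. It was at 12.8 CPM in control 2 noninjected, 11.7 CPM in control 4 formalin and 10.3 CPM in control 3 noninjected. The highest of the others was control 1 noninjected with 8.72 CPM. The same 7 libraries held the 7 highest levels of Hoxc11, from 1.65 CPM (control 4 formalin) to 8.83 CPM (control 4 noninjected), and no other library exceeded 0.813 CPM. Of the 7 highest levels of Hoxd11, 6 were in those libraries, and control 1 noninjected, with 3.38 CPM, took the place of control 3 noninjected. Hotair, a long noncoding RNA gene beside Hoxc11, was also highest in control 4 noninjected with 3.34 CPM, and was at 0 in icKO 1 noninjected and control 5 noninjected. As the libraries fall into separate sets, no correlation over all of them is given.

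**Figure D2:**
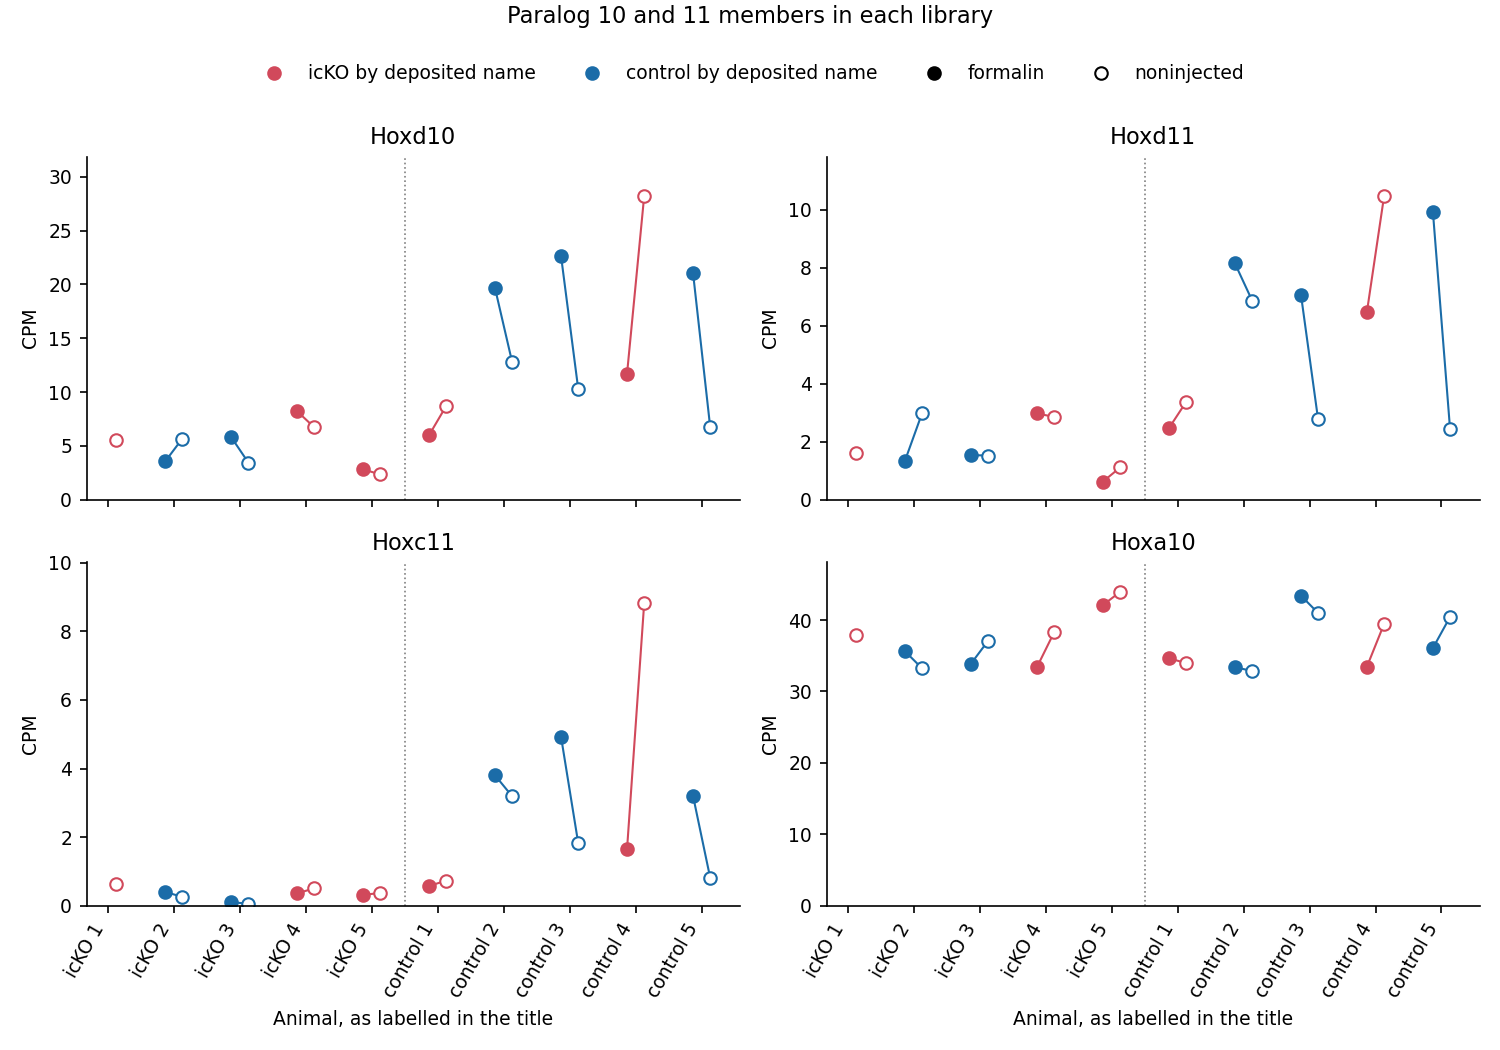
Each panel gives the level of 1 gene in CPM (y axis) in the animals named by title (x axis), with formalin libraries filled and noninjected libraries open, a line joining libraries of 1 animal, and colour by deposited genotype. The highest levels of Hoxd10, Hoxd11 and Hoxc11 are in libraries labelled control 2 to 5, of which control 5 noninjected is low in all 3 genes, while Hoxa10 stays between 32.9 and 43.96 CPM throughout.

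Libraries of 1 animal often differed in these genes. In control 5, Hoxd10 was at 21.1 CPM in the formalin library and 6.75 CPM in the noninjected one, and Hoxd11 at 9.94 CPM with formalin and 2.44 CPM without. In control 3, Hoxd10 was at 22.6 CPM with formalin and 10.3 CPM without. In control 4 the order was the other way, with Hoxd10 at 11.7 CPM with formalin and 28.2 CPM without, and Hoxc11 at 1.65 CPM with formalin and 8.83 CPM without. The part of the lumbar level in this spread was not tested. The median difference between libraries of an animal was 0.61 (log2, n = 9 animals) for Hoxd10 and 0.10 for Hoxa10. Hoxb8 had a median of 0.06 within animals, though formalin minus noninjected was -0.41 in control 3, -0.58 in control 5 and -0.59 in icKO 5. Its SD between the animals of both genotypes was 0.44 (log2), which is another measure than the median difference. Hoxd10 had an SD of 0.92 between animals and Hoxa10 one of 0.13.

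Set beside all 17671 genes tested over the 19 libraries, these members were among the most variable for their level within groups by deposited name and agent. The biological coefficient of variation, the spread between libraries of a group beyond counting error, was 3.97 times that of genes of like level for Hoxc11, 3.47 times for Hoxd10 and 3.10 times for Hoxd11. Only 0.458%, 0.809% and 1.11% of all genes had a larger ratio than Hoxc11, Hoxd10 and Hoxd11. The spread depended on the grouping. Over animal totals by deposited name, the coefficient was 1.045 for Hoxc11 (0.2385 for genes of like level), 0.582 for Hoxd10 (0.173) and 0.646 for Hoxd11 (0.215). Over animal totals by title, the coefficient was 0.556 for Hoxc11 (0.264 for genes of like level), 0.335 for Hoxd10 (0.180) and 0.377 for Hoxd11 (0.234). With only the 6 agreeing animals the coefficient was 0.241 for Hoxc11, below the 0.254 of genes of like level, 0.332 for Hoxd10 (0.188) and 0.377 for Hoxd11 (0.234). Over the libraries by deposited name and agent, next among the members came Hoxb8 (1.46 times) and Hoxa11 (1.45 times). Hoxd8, next to Hoxd9 in the same cluster as Hoxd10, had the lowest ratio, 0.576.

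**Figure D3:**
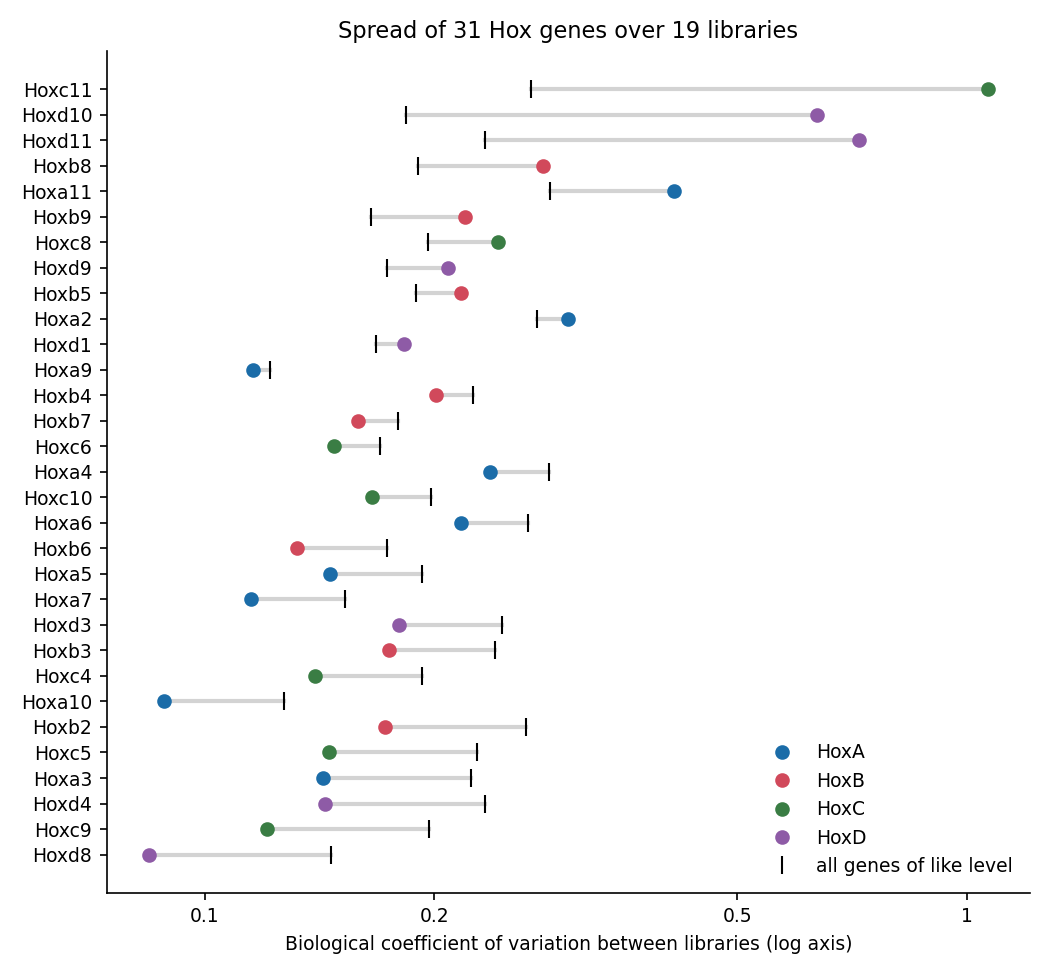
For the 31 Hox genes that passed the filter on low counts (y axis), points give the biological coefficient of variation (x axis, log scale) between libraries of a group by deposited name and agent and ticks that of all genes of like level. Hoxc11, Hoxd10 and Hoxd11 lie far to the right of their ticks, and Hoxd8 lies to the left of its own.

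The main comparison asked whether Hox levels differ between icKO and control animals grouped by deposited name, over animal totals in which both libraries of an animal are summed. The total of icKO 1 is the exception and held its noninjected library alone. None of the 31 members tested passed an adjusted p of 0.05 in edgeR (quasi-likelihood F test, Benjamini-Hochberg over all genes), while 1.09% of 18787 genes did. At an unadjusted p under 0.05 there were 4 members and 3234 genes. DESeq2 called 804 genes, of which 1 was a member, Hoxd1. The median log2 fold of icKO over control was 0.04, beside 0.00 over all genes. Of 8 HoxB members 7 had a positive fold (median 0.24), and of 7 HoxD members 5 had a negative one (median -0.18).

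Hoxd1 came closest. Its level was 14.8, 12.6, 21.6, 19.9 and 16.1 CPM in the icKO animals by deposited name, labelled control 1, control 4, icKO 1, icKO 4 and icKO 5. In the control animals by deposited name, labelled control 2, control 3, control 5, icKO 2 and icKO 3, it was 10.9, 10.9, 9.94, 9.34 and 13.03 CPM. All icKO animals but the one labelled control 4 were above every control animal. The means were 17.0 ± 3.68 CPM in icKO and 10.8 ± 1.40 CPM in control animals (SD, n = 5 each), a log2 fold of 0.67 (SE 0.15), with an adjusted p = 0.0599 in edgeR. It was called without the animal labelled control 1, and without the one labelled control 4. Hoxa7 followed at 0.30 (SE 0.09), Hoxb5 at 0.47 (SE 0.17) and Hoxb8 at 0.56 (SE 0.24), with adjusted p from 0.161 to 0.273 in edgeR. The intervals of 2 SE around the posterior genes were wide, from -1.56 to 0.69 for Hoxd10 and from -2.65 to 1.595 for Hoxc11. For Hoxa10 the interval ran from -0.16 to 0.15.

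In the 6 animals whose records agree, icKO 1, 4 and 5 against control 2, 3 and 5, 3 members rose and 1 fell of 31 tested. Of these animals icKO 1 had a noninjected library only, so formalin libraries were not equally present in icKO and control totals. Over all genes 0.895% of 18440 were called. Hoxd1 rose to 21.6, 19.9 and 16.1 CPM in icKO, against 10.9, 10.9 and 9.94 CPM in control (log2 fold 0.85, SE 0.12, edgeR adjusted p = 0.0385). Hoxb8, a gene of thoracic identity, was at 12.5, 12.0 and 14.9 CPM in icKO and 7.06, 6.83 and 6.16 CPM in control (0.98, SE 0.14, edgeR adjusted p = 0.0414). Hoxb5, a gene of neck and upper trunk level, was at 12.2, 12.9 and 11.4 CPM in icKO and 7.62, 6.75 and 6.65 CPM in control (0.80, SE 0.12, edgeR adjusted p = 0.0433). Hoxc11, a gene of sacral level, fell to 0.648, 0.415 and 0.336 CPM in icKO, against 3.43, 3.25 and 1.97 CPM in control (-2.67, SE 0.30, edgeR adjusted p = 0.0207). The groups of 3 did not overlap for any of these 4 genes, which were picked by their calls. Some members that were not called, named below, did not overlap either. The share of all genes that separate in this way was not counted. Without control 3 no member was called, without control 5 or without a term for sex only Hoxc11, and without icKO 4 only Hoxd10 and Hoxd11. Over all genes, 8 were called without control 3, 29 without control 5, 33 without a term for sex and 34 without icKO 4.

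In the same 6 animals, 1 of 8 Schwann cell markers fell, Ncmap, a myelin gene (log2 fold -0.56, SE 0.08, edgeR adjusted p = 0.0418), and 1 of 10 sensory neuron markers rose, Ntrk3 (0.85, SE 0.09, edgeR adjusted p = 0.015). No other marker was called. Folds were positive for 7 of 8 fibroblast markers (median log2 fold 0.44), for 9 of 9 skeletal muscle markers tested (3.40), for 6 of 6 erythroid markers (1.90) and for 5 of 5 adipocyte markers tested (1.75). Muscle markers summed to 2274 CPM in icKO 5 formalin, 97.33 to 114.9 CPM in the other icKO libraries and 63.56 to 105.5 CPM in control libraries. Adipocyte markers summed to 173 CPM in icKO 1, 8.568 to 54.11 CPM in icKO 4 and 5 and 8.938 to 28 CPM in control libraries. Erythroid markers summed to 172.7 CPM in icKO 1, 522 to 1383 CPM in icKO 4 and 5 and 113.9 to 231.3 CPM in control libraries. The median log2 fold was -0.10 for Schwann cell markers and -0.02 for 6 satellite glia markers. For the 10 sensory neuron markers it was 0.07, with 6 positive and 4 negative. The part of these markers in the Hox calls was not tested.

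**Figure D4:**
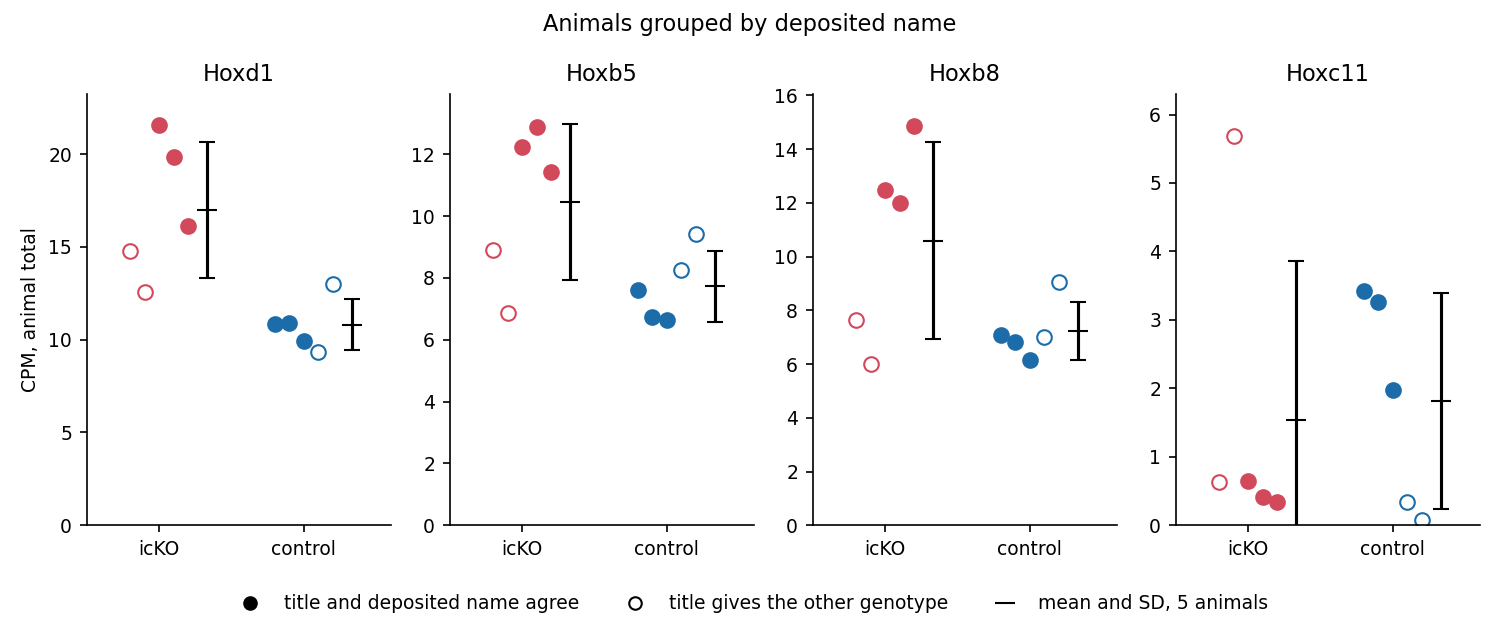
Points give animal totals in CPM (y axis) of Hoxd1, Hoxb5, Hoxb8 and Hoxc11 in icKO and control animals by deposited name (x axis), open where the title gives the other genotype, with the mean and SD of 5 animals. Filled points of icKO and control do not overlap in any panel, while open icKO and control points overlap for Hoxd1, Hoxb5 and Hoxb8. An SD that reaches below 0 is cut there.

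Another 3 members of the 31 are given for these 6 animals, of which Hoxb9 lay nearest the threshold. Hoxd10 and Hoxd11 lay further off, close to Hoxa7 (edgeR adjusted p = 0.142) and Hoxd3 (edgeR adjusted p = 0.16). Hoxb9, a gene of thoracic to lumbar level, was at 18.1, 16.7 and 19.6 CPM in icKO 1, 4 and 5 and 9.59, 12.9 and 12.5 CPM in control 2, 3 and 5 (log2 fold 0.65, SE 0.13, edgeR adjusted p = 0.0693). Hoxd10 was at 5.67, 7.66 and 2.57 CPM in icKO and 15.7, 16.0 and 13.7 CPM in control (-1.52, SE 0.39, edgeR adjusted p = 0.136). Hoxd11 was at 1.62, 2.94 and 0.840 CPM in icKO and 7.38, 4.76 and 6.07 CPM in control (-1.72, SE 0.45, edgeR adjusted p = 0.129). None of the 3 passed. Their animals did not overlap, and neither did those of Hoxa7 or Hoxd3. The same held for Hoxb3, Hoxc4, Hoxd4 and Hoxd9, which were not called and lay further from the threshold. Separation of the animals thus did not set the called members apart from uncalled ones. The share of all genes that separate in this way was not counted.

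The 4 animals with differing records are given for the same genes. By deposited name, Hoxb8 was at 7.64 and 6.004 CPM in the icKO animals labelled control 1 and control 4, and at 7.01 and 9.04 CPM in the control animals labelled icKO 2 and icKO 3. Hoxb5 was at 8.89 and 6.86 CPM in those icKO and 8.26 and 9.41 CPM in those control animals. Hoxc11 was at 0.637 and 5.68 CPM in the icKO animals and 0.334 and 0.0809 CPM in the control animals. Hoxd10 was at 7.13 and 20.8 CPM in the icKO animals and 4.45 and 4.75 CPM in the control animals. For Hoxc11 and Hoxd10 the difference thus lay on the other side from that in the 6 animals, with control 4 by far the highest. Control 1 lay within the range of icKO 1, 4 and 5 for both genes. That range was 0.336 to 0.648 CPM for Hoxc11 and 2.57 to 7.66 CPM for Hoxd10. Hoxd1 was at 14.8 and 12.6 CPM in the icKO animals and 9.34 and 13.03 CPM in the control animals. For Hoxd1, Hoxb5 and Hoxb8 these animals overlapped.

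Grouped by title, no member of 31 was called, as no gene was (0% of 18787; smallest edgeR adjusted p = 0.395), with 11 members and 1769 genes at an unadjusted p under 0.05. DESeq2 called 68 genes in this grouping, with 4 members among them, Hoxb9, Hoxc11, Hoxd10 and Hoxd11. Without control 1, edgeR called 10 genes, Hoxc11 among them. Hoxd10 averaged 5.02 ± 1.86 CPM in icKO and 14.6 ± 4.94 CPM in controls by title (SD, n = 5 each), a log2 fold of -1.47 (SE 0.32). Hoxd11 averaged 1.80 ± 0.772 CPM in icKO and 5.92 ± 2.23 CPM in controls (-1.66, SE 0.36). Hoxc11 averaged 0.363 ± 0.203 CPM in icKO and 2.99 ± 1.88 CPM in controls (-3.03, SE 0.59). Each of these 3 genes had a larger fold by title than by deposited name, where Hoxd10 was at -0.43, Hoxd11 at -0.50 and Hoxc11 at -0.53. Hoxd1 was larger by deposited name, at 0.67 against 0.43 by title. The difference between groupings was not tested, as they share the animals.

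**Figure D5:**
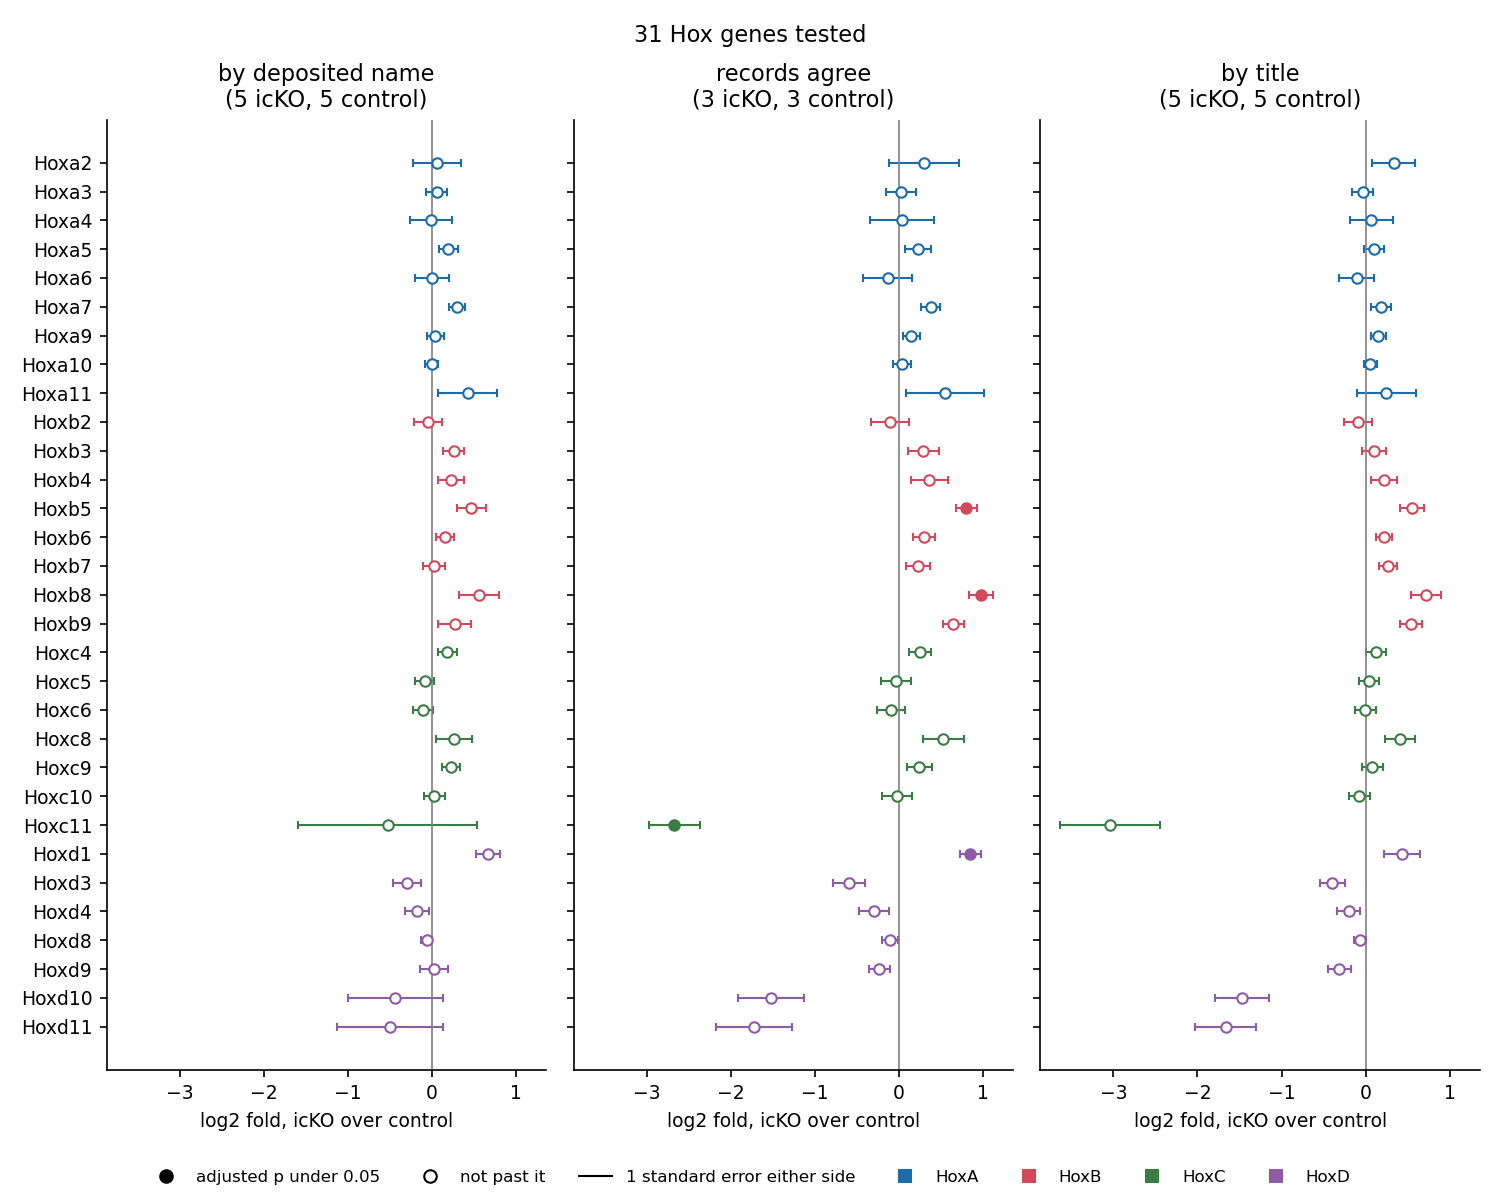
Points give the log2 fold of icKO over control (x axis) with 1 SE either side for the 31 Hox genes tested (y axis), coloured by cluster, in the groupings by deposited name, by the 6 animals whose records agree and by title. Filled points passed an adjusted p of 0.05, which occurs for 4 genes in the middle panel.

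Formalin was compared with no injection over 9 and 10 libraries, with a separate mean for each genotype by deposited name. No member of 31 was called, as no gene was (0% of 17671; smallest edgeR adjusted p = 0.0592), with 2 members and 861 genes at an unadjusted p under 0.05, and DESeq2 called 0 members. Most folds were slightly negative, 25 of 31, with a median log2 fold of -0.07 beside -0.00 over all genes. Hoxb6 averaged 11.005 ± 1.39 CPM in formalin and 12.99 ± 1.88 CPM in noninjected libraries (SD, n = 9 and 10), a log2 fold of -0.22 (SE 0.09). Hoxa4 averaged 0.852 ± 0.338 CPM in formalin and 1.18 ± 0.325 CPM in noninjected libraries (-0.49, SE 0.22). Both had an adjusted p = 0.848 in edgeR.

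The effect of formalin did not differ detectably between icKO and control libraries by deposited name. No member of 31 was called for the difference of the effects, as no gene was (0% of 17671; smallest edgeR adjusted p = 0.108), with 5 members and 4195 genes at an unadjusted p under 0.05. Hoxd9 had a difference of -0.89 (SE 0.28) and Hoxc5 of 0.69 (SE 0.22), with edgeR adjusted p of 0.115 and 0.114. DESeq2 called 842 genes, Hoxd9 among them. Without control 1, 1762 genes were called over all, Hoxa7 and Hoxd9 among them. The Hoxd9 level was highest in control 4 noninjected with 22.9 CPM, the library that was also highest in Hoxd10.

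Partners and regulators of the Hox genes were taken from lists chosen with earlier results in view, and are given by deposited name. Of 10 Hox cofactor genes 0 passed, with a median log2 fold of 0.15. Pbx3 was at 17.3 ± 1.602 CPM in icKO and 13.1 ± 0.792 CPM in control animals (SD, n = 5 each), a log2 fold of 0.40 (SE 0.09, edgeR adjusted p = 0.0554). Pbx2 was at 0.15 (SE 0.07). Of 30 Polycomb subunit genes 1 rose, with a median of 0.01. It was Cbx6, a chromatin-reading subunit, with 200.2 ± 26.0 CPM in icKO and 138.9 ± 10.005 CPM in control animals (0.54, SE 0.09, edgeR adjusted p = 0.0172). Of 12 Trithorax and H3K27 demethylase genes, which keep Hox genes active, 0 passed, and the smallest p belonged to Ash2l (-0.13, SE 0.05) and Kmt2a (-0.08, SE 0.06).

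Of 17 axial regulators, 14 were tested and 1 rose, Cyp26b1, which degrades retinoic acid. It was at 30.8, 29.6, 54.9, 31.2 and 45.7 CPM in icKO animals by deposited name, labelled control 1, control 4, icKO 1, icKO 4 and icKO 5. It was at 13.7, 13.5, 8.42, 14.2 and 9.44 CPM in control animals, labelled control 2, control 3, control 5, icKO 2 and icKO 3. The log2 fold of Cyp26b1 was 1.74 (SE 0.21, edgeR adjusted p = 0.00386). Cyp26b1 followed the deposited names in all 4 animals with differing records. It was picked by its call in this same grouping, which includes those animals, so this is no separate evidence on the records.

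Of 16 genes flanking the clusters 13 were tested and 0 passed, the smallest p being those of Ttll6 (-0.56, SE 0.15) and Nfe2 (1.33, SE 0.43). Of 10 noncoding genes of the clusters tested, of 17 in the files, 0 passed by deposited name. Hoxaas2, an antisense gene in HoxA, was at -0.50 (SE 0.12, edgeR adjusted p = 0.0681) and the host locus Mir196a-1 at -0.18 (SE 0.24). In the 6 animals whose records agree Hotair fell to 0, 0.128 and 0.140 CPM in icKO 1, 4 and 5, against 1.70, 1.23 and 1.07 CPM in control 2, 3 and 5 (-3.47, SE 0.49, edgeR adjusted p = 0.0385). It received 71 counts at most in a library.

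Markers of other cell types are given beside these results, and none of the erythroid, muscle, adipocyte or fibroblast genes was called. By deposited name, 6 of 6 erythroid markers had a positive fold (median log2 fold 1.49) and summed to 172.7 to 1383 CPM in icKO and 103.2 to 282 CPM in control libraries. All 9 skeletal muscle markers tested (of 10) had a positive fold (median 2.09), with 77.01 to 2274 CPM in icKO and 63.56 to 114.4 CPM in control libraries, and library medians of 98.06 CPM in icKO and 97.16 CPM in control. All 5 adipocyte markers tested (of 6) had a positive fold (median 1.14), with 8.568 to 173 CPM in icKO and 8.938 to 170.1 CPM in control libraries. Fibroblast markers summed to 1519 to 6211 CPM in icKO and 1416 to 3007 CPM in control libraries, with 4 of 8 positive (median 0.10) and library medians of 1652 CPM in icKO and 1958 CPM in control. Ntrk3, the neurotrophin-3 receptor of proprioceptors and 1 of 10 sensory neuron markers, rose to 538 ± 85.3 CPM in icKO, against 339 ± 30.6 CPM in control animals (SD, n = 5 each; 0.70, SE 0.10, edgeR adjusted p = 0.00673). All 10 sensory neuron markers together had a median log2 fold of 0.11, with 8 positive and 2 negative. The median fold was -0.08 for 8 Schwann cell markers, -0.08 for 6 satellite glia markers, 0.07 for 6 cartilage and bone markers tested and 0.08 for 3 spinal cord markers tested, with 0 called in each of these 4 lists. Their part in the Hox results was not tested. Without the icKO 5 formalin library, Hoxd1 passed the threshold by deposited name, where 342 genes were called, against 204 with that library. In the 6 animals 7 members were then called, namely Hoxa7, Hoxb9 and Hoxd11 besides the 4 above. Over all genes the calls in the 6 animals went from 165 of 18440 to 1422 of 18077. Hoxc8 was highest in icKO 5, with 15.9 CPM in its formalin and 12.98 CPM in its noninjected library. That noninjected library held 98.06 CPM of muscle markers.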

How the data were processed

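RNA-seq libraries were made from polyA RNA with a kit that does not mark strand, per the labels' protocols. Reads were processed with bcl2fastq 2.20.0.422, STAR 2.7.8a and featureCounts 2.0.1 on GRCm39, per the submitters' processing notes. The deposited values are whole-number counts per Ensembl gene. Gene names came from a GENCODE annotation of GRCm38 and covered 52083 of 55416 IDs (94%), and exon lengths came from the same annotation.

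The 19 libraries over 1000000 counts were used. They held 11763893 to 22392635 counts. Counts were tested with edgeR 4.0.16 in R 4.3.3 (quasi-likelihood F test, robust, TMM, default filter on low counts) with sex as a covariate and Benjamini-Hochberg adjustment over all genes tested. Genotype was tested on animal totals, and formalin on libraries in cell means of deposited genotype and agent. Standard errors were taken from the fold and F, and intervals span 2 SE either side. Libraries of an animal share its number in the titles and its name in the deposited records, so they pair by animal. The reported formalin fits have no term for the animal, and the paired fit was an alternative. Correlations of their deviations ran from -0.0376 to 0.434 over 9 pairs, with 8 over 0.1. No label tells how animals were housed or processed together.

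Members and lists were chosen with earlier results of these data known. Values per sample are given for members called in any comparison, the leading gene of each cluster and members over 1 CPM in part of the libraries. Of each other list, genes called by deposited name are given, or, where none was, the 2 genes of lowest p. Others named, such as Hoxd10 and Hotair, were chosen after their values were seen. Alternatives were DESeq2 1.42.0, its size factors, no filter, no sex term, a replicate block, leaving out the icKO 5 formalin library and leaving out each animal. Limits on counts of 0 cover counting error only. Replicate libraries differed beyond counting noise (chi-square per degree of freedom 7.73 to 112.8).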

Additional observations from a re-analysis of the deposited data

Results flagged for a closer look

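In 4 of 30 groups of 5 animals tested, covering 15 genes, 1 animal lay far from the other 4 (a gap of more than 0.71 of the range). Chance flags about 1 in 20 groups. The count cannot be set against that rate, as genes were chosen with their values seen and some vary together. All 4 flagged groups are of icKO animals by deposited name. The animal labelled control 4 was at 20.76 CPM of Hoxd10, with the next icKO animal at 7.66 CPM. It was at 8.565 CPM of Hoxd11, with the next at 2.936 CPM, and at 5.684 CPM of Hoxc11, with the next at 0.6482 CPM. The animal labelled icKO 5 was at 1.959 CPM of Hoxa11, with the next at 0.9894 CPM. Its formalin library held 2274 CPM of skeletal muscle markers, whose part in the Hoxa11 level was not tested.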

How the results depend on the processing

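By deposited name, 0 Hox genes were called in the reported fit, and 4 without a filter, 1 with DESeq2 and 1 when the icKO 5 formalin library was left out. Leaving out each animal gave 0 to 1. Over all genes, 204 were called, against 804 with DESeq2, 1811 without a filter, 342 without that library, and 78 (without control 3) to 282 (without icKO 1) leaving out an animal. In the 6 animals whose records agree, 4 Hox genes were called, against 7 with DESeq2, 7 without a filter, 7 without that library and 1 without a sex term, and 0 (without control 3) to 4 leaving out an animal. Over all genes, 165 became 1036 with DESeq2, 1880 without a filter, 1422 without that library, 33 without a sex term, and 8 (without control 3) to 639 (without control 2). By title, 0 Hox genes became 4 with DESeq2 and 7 without a filter, and 0 to 1 leaving out an animal, while 0 genes over all became 68, 851 and 0 to 10. For formalin, Hox calls stayed at 0 in each alternative run, while over all genes there were 2 with DESeq2, 210 without a filter and 1 without a sex term. For the difference of formalin effects, 0 Hox calls became 1 with DESeq2, 5 without a filter and 0 to 2 leaving out an animal (2 without control 1), and over all genes 842, 2519 and 0 to 1762 (without control 1). The cause was not tested in any of these. Without control 2, the Hoxc11 fold by deposited name was 0.27, against -0.53 in the reported fit, within a range of -1.82 to 0.27. With the replicate block, pairing libraries by animal for formalin, 0 Hox genes and 0 genes over all were called for formalin, for the difference of effects and by title, which changed no call. Low counts limit Hoxc11 (1 to 188 counts a library).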
